A study of Mus musculus with 12 samples.

Results

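The vesicle release genes described here are 10 named genes of the calcium-triggered exocytosis machinery: Rph3a, Unc13a, Unc13b, Unc13c, Rab3a, Rims1, Snap25, Stx1a, Syt1 and Doc2b. They were followed in cultured mouse oligodendrocyte precursor cells (OPCs), the dividing glial cells that give rise to myelinating oligodendrocytes. All 10 were found among the 55536 genes of the annotation, and all 10 were among the 17919 genes that held at least 10 counts in at least 4 libraries. The genes were chosen by name with earlier results of these read counts known. Rph3a was selected on its low count under IFN-γ and Unc13b on its lower count under dexamethasone, so those values are given as a description with no test, while the values, if any, that selected the other 8 are not stated.

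Cells came from pooled brains of pups aged P4 to P6 and carried, per the study's methods, a Sox10:Cre driver with a loxP-controlled EGFP reporter, so that GFP marks the Sox10-expressing oligodendrocyte lineage. The labels name every sample Sox10GFP+ OPCs, while the protocol lists GFP sorting or magnetic selection on CD140a, the PDGF receptor α, without saying which served for which library. The labels also give EAE as mouse model, although no immunization of these pups is described. All 3 groups grew in proliferation medium with PDGFaa and bFGF. Ctr-OPCs received nothing further, Dexa-treated OPCs received 1 µM of the synthetic glucocorticoid dexamethasone for 48 h, and IFN-γ-treated OPCs received 100 ng/ml of the cytokine IFN-γ for 48 h. Each group had 4 total RNA-seq libraries, and per the study's methods its replicates came from separate litters. Libraries of the same replicate number share a title prefix and deviated together across genes, so ratios within a number are given as well. Replicates 3 and 4 have the same prefix, and their libraries also deviated together across numbers (r = 0.213 to 0.495 in 4 pairs), so the 4 numbers may be fewer than 4 independent sets.

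The 11 complete libraries held 19209063 to 52074652 reads. The table of Dexa replicate 3 stopped after 33.7% of the transcripts and listed only Rims1, Syt1 and Doc2b whole, so Dexa-treated OPCs count as n = 3 and this library entered only an alternative fit over the 6319 genes it lists whole. OPC markers summed to 668 to 1981 TPM (a level that accounts for transcript length and library depth), microglial markers to at most 1.07 TPM and endothelial and mural markers to at most 0.951 TPM. Astrocyte markers summed to 149 to 317 TPM in Ctr-OPCs, 308 to 477 TPM in Dexa-treated OPCs and 269 to 435 TPM in IFN-γ-treated OPCs, most of it Aldoc and Slc1a3, while Gfap reached at most 3.27 TPM. Of the 8 astrocyte genes, Gfap and Aldoc were called higher under IFN-γ (log2 fold changes 3.82 and 0.78, DESeq2 adjusted p = 3.98e-09 and 0.0399). The list did not move as a whole: 3 of the 8 had log2 fold changes below 0, none of them called (S100b -1.60, Aqp4 -1.02 and Gja1 -0.35). The part of this list in the results below was not tested. The libraries numbered 1 had the lowest OPC marker sum of their group in all 3 groups. The neuronal markers Rbfox3 and Stmn2 stayed at or below 0.728 and 0.131 TPM, while Map2, Gap43 and Tubb3, which glial precursors also express, made up most of the neuronal list. Elavl4, Dcx, Elavl3, Nefm and Nefl of that list reached up to 13.4, 11.2, 7.40, 3.71 and 1.69 TPM. Those levels are in the range of the vesicle release genes given below, and their part in the results was not tested. In RNA from a whole culture, fewer cells of a type and less RNA per cell cannot be told apart.

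As background, vesicles that release their content on a calcium signal are first tethered, then docked and primed, and finally fused. Rab3a is a small GTPase on the vesicle, and Rph3a (rabphilin 3A) and Rims1 bind it in its GTP form. The Unc13 (Munc13) proteins open the syntaxin of the target membrane so that Stx1a and Snap25 can zip up with a vesicle SNARE. Syt1 is a calcium sensor that triggers fusion, and Doc2b is a sensor of higher calcium affinity that shares the paired C2 domains of Syt1 and Rph3a. These genes are known mainly from neurons and endocrine cells, and OPCs receive synaptic input from neurons.

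RefSeq start-site windows, 250 bases before to 50 after each start (GRCm38.p6), were at hand for 8 of the 10 genes, all but Snap25 and Doc2b. The windows of the gene with the greatest fall, of both well-expressed Unc13 genes and of the gene that rose are shown 5′ to 3′ on the gene's own strand, with every CpG in capitals. They lie at chr5:121009489-121009788 on the minus strand for Rph3a, chr8:71671708-71672007 on the minus strand for Unc13a, chr4:43058703-43059002 on the plus strand for Unc13b and chr10:109010926-109011225 on the minus strand for Syt1.
Rph3a: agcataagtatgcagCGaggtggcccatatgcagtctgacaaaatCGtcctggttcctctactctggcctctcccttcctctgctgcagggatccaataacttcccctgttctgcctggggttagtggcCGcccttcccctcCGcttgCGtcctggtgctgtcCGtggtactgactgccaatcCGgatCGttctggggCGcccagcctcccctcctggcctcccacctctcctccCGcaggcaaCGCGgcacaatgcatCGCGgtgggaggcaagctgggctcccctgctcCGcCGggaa
Unc13a: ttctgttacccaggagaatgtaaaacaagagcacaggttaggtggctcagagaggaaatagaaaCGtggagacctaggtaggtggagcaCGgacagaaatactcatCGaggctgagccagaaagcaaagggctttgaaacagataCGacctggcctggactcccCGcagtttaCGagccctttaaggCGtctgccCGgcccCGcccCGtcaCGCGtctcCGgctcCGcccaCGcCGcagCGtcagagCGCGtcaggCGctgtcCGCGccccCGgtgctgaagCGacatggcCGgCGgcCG
Unc13b: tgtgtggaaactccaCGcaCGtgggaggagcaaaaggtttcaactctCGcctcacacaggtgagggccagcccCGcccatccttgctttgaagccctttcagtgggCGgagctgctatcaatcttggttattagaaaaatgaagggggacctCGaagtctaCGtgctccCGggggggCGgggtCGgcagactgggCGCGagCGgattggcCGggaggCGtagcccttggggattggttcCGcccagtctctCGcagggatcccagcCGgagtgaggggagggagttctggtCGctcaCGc
Syt1: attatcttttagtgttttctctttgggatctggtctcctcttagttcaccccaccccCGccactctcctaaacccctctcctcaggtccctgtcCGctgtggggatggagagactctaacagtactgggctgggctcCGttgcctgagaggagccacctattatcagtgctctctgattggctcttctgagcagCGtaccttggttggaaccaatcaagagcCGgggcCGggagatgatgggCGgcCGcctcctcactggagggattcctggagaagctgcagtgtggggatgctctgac

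The windows of Rph3a, Unc13a and Unc13b held 16, 27 and 20 CpGs, and that of Syt1 held 8, against a median of 7 over all 32851 windows. Rph3a has a window at each of 3 annotated starts, and the one shown is the start of Rph3a-201, the transcript that took 96.3% ± 3.45 (SD, n = 4) of its reads in Ctr-OPCs. Both strands of the members' windows were searched for 2 motifs. The interferon-stimulated response element core GAAANNGAAA stood in 3.44% of all windows and, among the 12 windows of these genes, in that of Unc13a, as GAAATAGAAA at chr8:71671944-71671953, with its first base 196 bases before the start. The spaced half-sites of the glucocorticoid receptor, ACANNNTGT, stood in 6.85% of all windows and matched in 1 of those 12, at another annotated start of Syt1 (chr10:109009314-109009322), as ACATCATGT, which reads the same pattern on both strands. A match is a run of letters and no measure of binding.

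Transcript abundance per length ordered the genes in Ctr-OPCs from Rab3a (8.99 ± 2.50 TPM, SD, n = 4) through Rph3a (5.09 ± 2.18 TPM), Unc13b (4.29 ± 0.432 TPM), Snap25 (3.01 ± 0.959 TPM), Unc13a (2.82 ± 0.361 TPM), Rims1 (2.18 ± 0.801 TPM), Stx1a (2.14 ± 0.297 TPM) and Syt1 (0.894 ± 0.159 TPM) to Doc2b (0.0844 ± 0.0343 TPM) and Unc13c (0.0271 ± 0.0110 TPM). The library ranges of neighbours overlapped from Rab3a to Unc13b and from Snap25 to Stx1a, while Unc13b lay above Snap25, Stx1a above Syt1, Syt1 above Doc2b and Doc2b above Unc13c in every library. Rph3a sat at the 53.9th percentile of the genes tested and Unc13c at the 0.720th. In IFN-γ-treated OPCs, Rph3a stood in the 8th place at 0.425 ± 0.339 TPM and Syt1 in the 5th at 2.18 ± 0.572 TPM. In Dexa-treated OPCs, Snap25 and Unc13a stood ahead of Unc13b, with overlapping ranges.

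**Figure D1:**
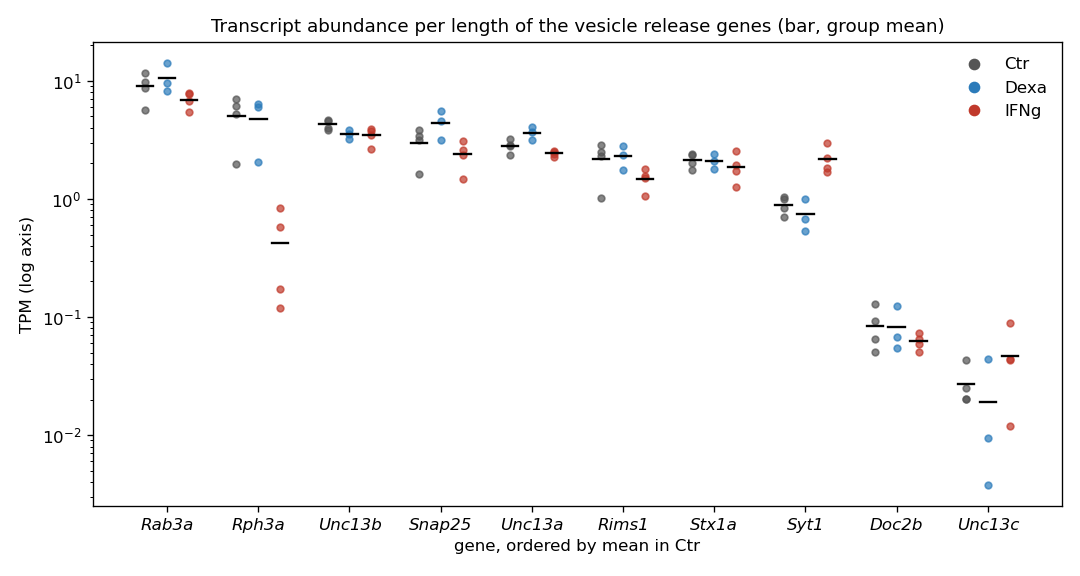
TPM of each gene (vertical log axis) in every complete library of Ctr-OPCs (grey), Dexa-treated OPCs (blue) and IFN-γ-treated OPCs (red), with genes ordered by their mean in Ctr-OPCs and bars at the group means. Rph3a is the gene whose IFN-γ points drop farthest below the other groups, and Syt1 the one whose IFN-γ points all lie above them.

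The first comparison asked how IFN-γ changes the transcripts of this machinery. IFN-γ-treated OPCs held far less Rph3a and less Unc13a and Unc13b than Ctr-OPCs, and about 2.14-fold more Syt1. Leaving aside Rph3a, which was selected on this contrast, 3 of the other 9 genes had an adjusted p under 0.05 (2 lower and 1 higher, DESeq2's Wald test with Benjamini-Hochberg adjustment over all genes tested), where 12.8% of all genes did (4.83% lower and 8.02% higher). edgeR called the same number, where it called 8.44% of all genes. Neither of these fits modelled the replicate number. These 3 were also the ones of the 9 whose groups did not overlap in depth-normalized counts, a state found for 14.3% of all genes. Unc13b, among these 3, was selected for its fall under dexamethasone against the same Ctr libraries, so its fall here is not independent of that selection. The median log2 fold change was -0.48 over the 10 genes, the selected Rph3a and Unc13b among them, and -0.02 over all genes. Because the list was made with these values known, the adjusted p-values below describe the fit and are no independent support.

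Rph3a (chr5:120940499-121010092, minus strand) held 467, 1204, 1401 and 1137 normalized counts in Ctr replicates 1 to 4 and 22.9, 29.3, 125 and 153 in IFN-γ replicates 1 to 4. Normalized counts are read counts divided by a size factor for the library's depth. Every IFN-γ library lay below every Ctr library, and replicates 1 and 2 fell to the lowest levels. The fitted log2 fold change was -3.68 ± 0.60 (SE), a 12.8-fold difference between means of 1052 ± 406 and 82.4 ± 66.1 (SD, n = 4 each). Within replicate numbers 1 to 4 the log2 ratios were -4.29, -5.32, -3.48 and -2.89. The IFN-γ values rest on 23, 31, 107 and 119 reads. Rph3a was also lowest in the libraries numbered 1 of each group, those with the lowest sums of OPC markers and of differentiating and mature oligodendrocyte markers. Across treatments the oligodendrocyte marker sum was 88.9 to 548 TPM in Ctr-OPCs and 77.2 to 241 TPM in IFN-γ-treated OPCs, and 1 of its 10 genes, Enpp6, was called lower (log2 fold change -3.81, DESeq2 adjusted p = 0.0305). The OPC marker sum was 808 to 1886 TPM in Ctr-OPCs and 668 to 1443 TPM in IFN-γ-treated OPCs. Of the 8 OPC markers, 7 had log2 fold changes below 0 and 1, C1ql1, was called lower (-2.20, DESeq2 adjusted p = 0.00914). The part of these markers in the Rph3a values was not tested.

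The Unc13 genes encode the priming factors Munc13-1 (Unc13a), Munc13-2 (Unc13b) and Munc13-3 (Unc13c). Unc13a (chr8:71624417-71671757, minus strand) held 634, 631, 674 and 718 normalized counts in Ctr replicates 1 to 4 and 415, 372, 472 and 426 in IFN-γ replicates 1 to 4. In these counts both groups were tight and did not overlap. It changed by a log2 fold change of -0.66 ± 0.12 (SE), with adjusted p = 3.46e-07 by DESeq2 and 0.00329 by edgeR. When the effective transcript lengths of each library entered the fit as offsets, the change shrank to -0.38 (DESeq2 adjusted p = 0.0341). On the TPM scale the means were 2.82 ± 0.361 and 2.43 ± 0.119 (SD, n = 4 each). There the groups overlapped, with 2.35 to 3.23 TPM in Ctr-OPCs and 2.28 to 2.56 TPM in IFN-γ-treated OPCs. The share of Unc13a reads assigned to its main transcript was 71.4% ± 6.86 in Ctr-OPCs and 69.2% ± 5.98 in IFN-γ-treated OPCs.

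Unc13b (chr4:43058953-43264871, plus strand) held 1200, 1216, 1258 and 1137 normalized counts in Ctr replicates 1 to 4 and 1001.6, 899, 831 and 822 in IFN-γ replicates 1 to 4. Again no library of one group reached the other in these counts. The TPM ranges overlapped, with 3.86 to 4.71 in Ctr-OPCs and 2.63 to 3.92 in IFN-γ-treated OPCs, while the fit with length offsets gave a log2 fold change of -0.49. Without those offsets the log2 fold change of Unc13b was -0.44 ± 0.09 (SE; adjusted p = 2.76e-05 in DESeq2 and 0.0109 in edgeR), and Unc13b was lower in 4 of 4 replicate numbers. Unc13c held 9 to 20 reads in the Ctr libraries and 5 to 28 in the IFN-γ libraries, too few to resolve a change (log2 fold change 0.65 ± 0.66, SE). Of the TPM of the Unc13 family in Ctr-OPCs, Unc13b made up 59.6% ± 2.47, Unc13a 39.1% ± 2.19, Unc13d 0.932% ± 0.219 and Unc13c 0.380% ± 0.163 (SD, n = 4 each).

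Syt1 (chr10:108497650-109010982, minus strand), the synchronous-release calcium sensor, was the member that rose. It held 255, 191, 208 and 178 normalized counts in Ctr replicates 1 to 4 and 399, 413, 418 and 552 in IFN-γ replicates 1 to 4. The groups did not overlap, and IFN-γ replicate 4 stood above the other 3. The log2 fold change was 1.10 ± 0.20 (SE; adjusted p = 1.07e-06 in DESeq2 and 0.00431 in edgeR), and Syt1 was higher in 4 of 4 replicate numbers. Syt1 took 33.5% ± 5.61 of the summed TPM of Syt1, Syt2 and Syt9, the fast synaptotagmins, in Ctr-OPCs and 33.5% ± 3.84 in IFN-γ-treated OPCs (SD, n = 4 each), since all 3 were higher. Their summed level was 2.68 ± 0.351 TPM in Ctr-OPCs and 6.50 ± 1.34 TPM in IFN-γ-treated OPCs. Tubb3 and Elavl4 of the neuronal list were called higher as well (log2 fold changes 1.57 and 0.57, DESeq2 adjusted p = 1.28e-08 and 0.0208), Rbfox3 was not (-0.32, adjusted p = 0.687), and the list summed to 248 to 362 TPM in Ctr-OPCs and 322 to 465 TPM in IFN-γ-treated OPCs. The part of that list in the Syt1 values was not tested.

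**Figure D2:**
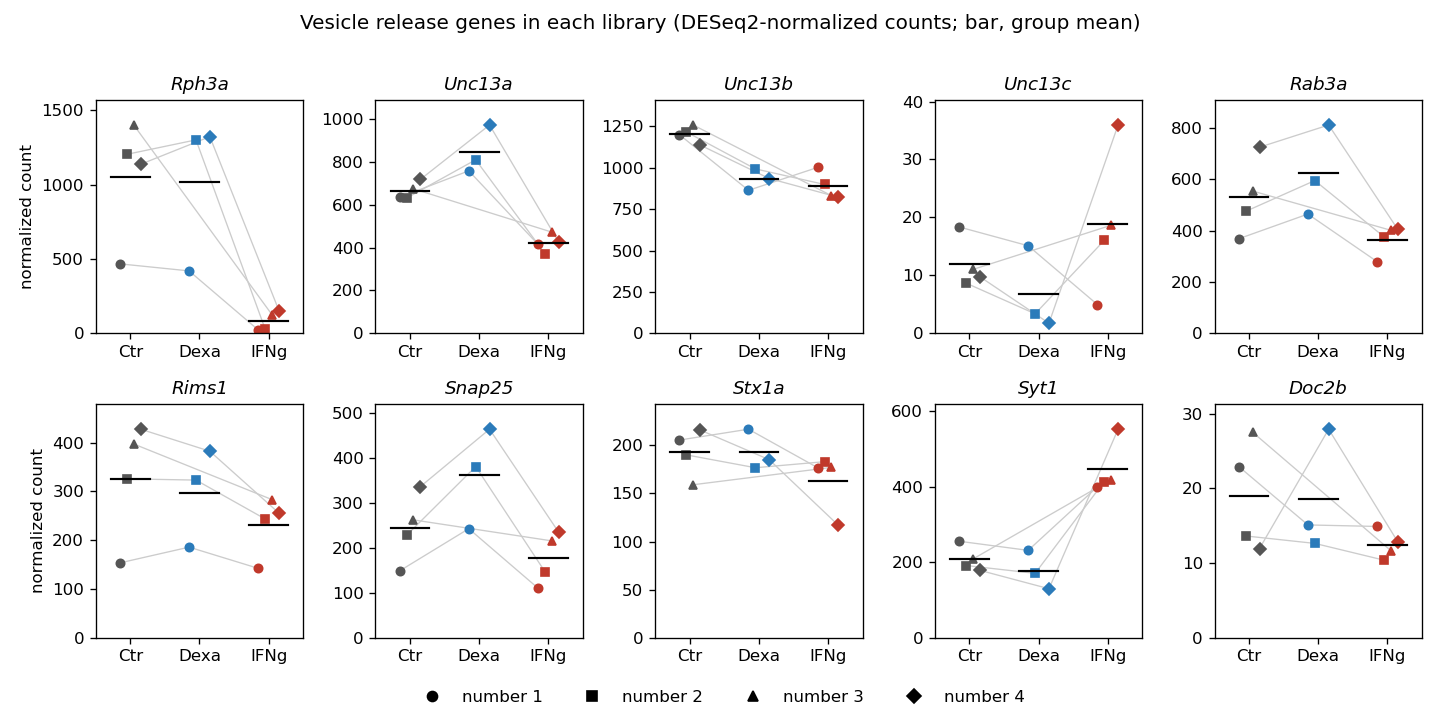
DESeq2-normalized counts (vertical axes from 0) of the 10 genes in every complete library, with marker shape for the replicate number, grey lines joining libraries of the same number and bars at group means. The IFN-γ points of Rph3a, Unc13a and Unc13b lie below all Ctr points and those of Syt1 above, whereas the other panels overlap.

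For Rab3a, Rims1 and Snap25 the groups overlapped, and the call depended on whether replicate number was modelled. Rab3a (chr8:70754679-70758677, plus strand), the vesicle GTPase, held 368, 475, 554 and 724 normalized counts in Ctr replicates 1 to 4 and 279, 376, 401 and 404 in IFN-γ replicates 1 to 4. Its log2 fold change was -0.54 ± 0.25 (SE; DESeq2 adjusted p = 0.157, and 2.94e-05 with the replicate block). Each number fell, by 0.40, 0.34, 0.46 and 0.84 on the log2 scale. Without Ctr replicate 1 the unblocked call was also made (DESeq2 adjusted p = 0.0352).

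Rims1 (chr1:22286251-22805994, minus strand), the active zone scaffold, held 153, 326, 397 and 428 normalized counts in Ctr replicates 1 to 4 and 142, 243, 283 and 255 in IFN-γ replicates 1 to 4. The log2 fold change was -0.50 ± 0.35 (SE; DESeq2 adjusted p = 0.447, and 0.00249 with the replicate block). Snap25 (chr2:136713453-136782428, plus strand), the target-membrane SNARE with 2 helices, held 149, 228, 262 and 337 normalized counts in Ctr replicates 1 to 4 and 110, 147, 216 and 235 in IFN-γ replicates 1 to 4. The log2 fold change was -0.46 ± 0.32 (SE; DESeq2 adjusted p = 0.439, and 0.00256 with the replicate block). Both genes were lower within all 4 numbers, and in both groups replicate 1 was the lowest. With the block in DESeq2, 6 of the 9 genes other than Rph3a were called (5 lower, Unc13b among them, and 1 higher), where 29.2% of all genes were.

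Stx1a (chr5:135023482-135051100, plus strand), the syntaxin that Munc13 opens, held 206, 190.2, 159 and 216 normalized counts in Ctr replicates 1 to 4 and 177, 183, 177 and 117 in IFN-γ replicates 1 to 4. Only IFN-γ replicate 4 stood clearly below the Ctr libraries, and the log2 fold change of -0.23 ± 0.17 (SE) did not pass the test (DESeq2 adjusted p = 0.495, and 0.351 with the block). Doc2b (chr11:75768966-75796049, minus strand) held 10 to 40 reads in these 8 libraries, and its log2 fold change of -0.62 ± 0.42 (SE; DESeq2 adjusted p = 0.412) was not resolved at this depth. Snap23, the paralogue of Snap25, took 75.3% ± 5.42 of their joint TPM in Ctr-OPCs and 80.4% ± 5.09 in IFN-γ-treated OPCs (SD, n = 4 each).

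The second comparison asked what dexamethasone changes in the same genes. Unc13b was lower in Dexa-treated OPCs than in Ctr-OPCs, the change it was selected on, and is described with no test. Unc13a was higher, with no overlap between groups in normalized counts, but was not called without the replicate block (adjusted p = 0.383 by DESeq2 and 0.992 by edgeR). Apart from Unc13b, which was selected on this contrast, 0 of the other 9 genes were called by DESeq2 or edgeR without the block. Among these 9, 1, Unc13a, had an unadjusted DESeq2 p under 0.05 (0.00448). With the block, Snap25 was called by both and Unc13a by DESeq2 alone, as given below. Of all genes, DESeq2 called 0.547% and edgeR 0.123% without the block, and DESeq2 called 2.57% with it. Groups that did not overlap were found for 4.26%. The Ctr libraries are the same as in the first comparison, so the 2 comparisons are not independent. The median log2 fold change was -0.08 over the 10 genes, the selected Unc13b among them, and -0.01 over all genes.

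Unc13b held 863, 993 and 935 normalized counts in Dexa replicates 1, 2 and 4, below all 4 Ctr libraries. The log2 fold change was -0.37 ± 0.10 (SE), 1.29-fold between means of 1203 ± 50.2 (SD, n = 4) and 930.3 ± 64.8 (SD, n = 3), and lower in 3 of 3 replicate numbers. Over 20 alternatives the log2 fold change ran from -0.42 to -0.28. Unc13a held 758, 809 and 971 normalized counts in Dexa replicates 1, 2 and 4, above all 4 Ctr libraries. Its log2 fold change was 0.35 ± 0.12 (SE; DESeq2 adjusted p = 0.383, and 0.0173 with the replicate block, while edgeR gave 0.0579 with the block). Unc13a accordingly made up 49.5% ± 2.61 of the family's TPM in Dexa-treated OPCs and Unc13b 48.4% ± 3.71 (SD, n = 3), while the family sum was 7.32 ± 0.634 TPM against 7.20 ± 0.736 TPM in Ctr-OPCs.

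Snap25 held 243, 381 and 465 normalized counts in Dexa replicates 1, 2 and 4, each above the Ctr library of its number. The fitted change was 0.57 ± 0.35 (SE; DESeq2 adjusted p = 1, and 2.51e-04 with the replicate block), and edgeR with the block gave an adjusted p of 0.0146. The groups overlapped, since replicate 1 was the lowest of each. With the block in DESeq2, Unc13a and Snap25 were called of the 9 genes other than Unc13b, where 2.57% of all genes were, and the Unc13a call was not made by edgeR with the block.

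Rph3a held 419.8, 1301 and 1323 normalized counts in Dexa replicates 1, 2 and 4, across the same range as Ctr-OPCs (log2 fold change -0.05 ± 0.64). Rab3a held 464, 594 and 811, higher within each of the 3 numbers (0.23 ± 0.27, DESeq2 adjusted p = 1). Syt1 held 231, 170.1 and 129, lower within each number (-0.22 ± 0.22, DESeq2 adjusted p = 1), and 131 in the incomplete Dexa replicate 3 on a size factor from the genes listed there. The 12-library fit over those genes gave -0.32 for Syt1 (DESeq2 adjusted p = 1). The direction of Rph3a, Rims1, Stx1a and Doc2b turned under some alternatives. Rims1 held 186, 323 and 383 (-0.14 ± 0.38) and Stx1a 217, 177 and 185 (0.01 ± 0.19), both close to Ctr-OPCs. Unc13c and Doc2b held 1 to 14 and 14 to 16 reads in these 3 libraries, which is too few to resolve a change.

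**Figure D3:**
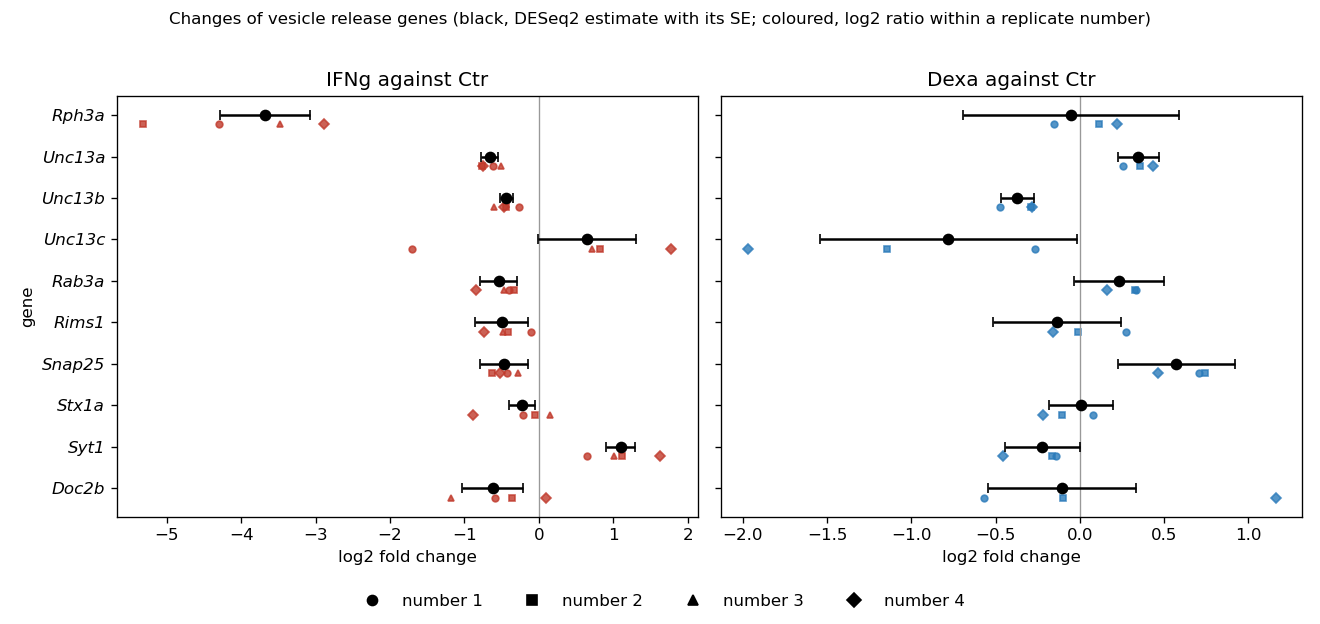
Log2 fold change of each gene in IFN-γ-treated OPCs (left) and Dexa-treated OPCs (right) against Ctr-OPCs, with black points for the DESeq2 estimate, bars for its SE and coloured points for the log2 ratio within each replicate number. The 2 horizontal axes have different ranges. For Rab3a, Rims1 and Snap25 the 4 within-number points of the left panel lie on one side of 0 although the SE bar is wide.

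The third comparison set the treatments against each other. Of the 8 genes other than Rph3a and Unc13b, 4 were called (3 lower and 1 higher in IFN-γ-treated OPCs), where 13.1% of all genes were (5.43% lower and 7.66% higher) and 19.9% had groups that did not overlap. IFN-γ-treated OPCs held less Unc13a than Dexa-treated OPCs, with a log2 difference of -1.003 ± 0.12 (SE; DESeq2 adjusted p = 4.87e-14), and more Syt1 (1.32 ± 0.22, DESeq2 adjusted p = 7.32e-08). Snap25 (-1.04 ± 0.35) and Rab3a (-0.77 ± 0.27) were lower with DESeq2 adjusted p = 0.0276 and 0.0349, but edgeR gave 0.0918 and 0.0914 and called 2 of these 8, Unc13a and Syt1, beside 8.77% of all. Both calls were lost when a single library was left out: Snap25 without IFN-γ replicate 1 or 2 or Dexa replicate 2 or 4 (adjusted p up to 0.214), and Rab3a without these or without IFN-γ replicate 3 or 4 or Ctr replicate 2 (up to 0.282). The blocked DESeq2 fit gave adjusted p = 3.27e-13 for Snap25, 2.57e-09 for Rab3a and 0.00739 for Rims1. Rph3a differed by -3.63 ± 0.65, given as a description, and Unc13b by -0.07 ± 0.10, with overlapping groups.

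Transcript shares do not use the gene totals. The share of reads that the authors' quantification assigned to a gene's main transcript was compared between Ctr-OPCs and OPCs given IFN-γ, for the 7 genes with at least 50 reads in each of these 8 libraries. None of the 7 passed at a Benjamini-Hochberg adjusted p of 0.05 (two-sided exact permutation test, which for 4 against 4 can give no p below 0.0286). The same number passed with shares of TPM. Stx1a had the smallest p: Stx1a-204 took 91.7% ± 1.44 of Stx1a reads in Ctr-OPCs and 83.0% ± 2.08 in IFN-γ-treated OPCs, a difference of -8.69 percentage points without overlap (exact permutation p = 0.0286, adjusted 0.2). Dexa replicates 1, 2 and 4 lay at 69.3%, 97.2% and 71.7%, on both sides of these groups.

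Stx1a-204 is annotated as a target of nonsense-mediated decay, a route by which transcripts with a premature stop are degraded. Compared with the coding Stx1a-201, it holds 83 more bases at the start of 1 exon, chr5:135048911-135048993 on the plus strand. They are shown here because reads over them help to separate the 2 transcripts. The transcripts also start at different positions, 135023482 for Stx1a-201 and 135023560 for Stx1a-204, so the share is not a reading of these bases alone.
Stx1a-204 extension: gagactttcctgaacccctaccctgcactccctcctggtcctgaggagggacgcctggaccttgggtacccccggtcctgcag

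Protein-coding transcripts together took 5.25% ± 3.28 of Stx1a reads in Ctr-OPCs and 15.6% ± 3.02 in IFN-γ-treated OPCs (SD, n = 4 each). Stx1a-201 itself was assigned 0 to 18.3 reads in the Ctr libraries and 13.2 to 29.7 in the IFN-γ libraries, so these shares rest on few reads.

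Snap25 has alternative exons of 118 bases, which give the isoforms known as SNAP-25a and SNAP-25b. The exon of Snap25-201 lies at chr2:136770057-136770174 and that of Snap25-202 at chr2:136769743-136769860, both on the plus strand. They differ at 31 of 118 positions, which stand in capitals.
Snap25-201: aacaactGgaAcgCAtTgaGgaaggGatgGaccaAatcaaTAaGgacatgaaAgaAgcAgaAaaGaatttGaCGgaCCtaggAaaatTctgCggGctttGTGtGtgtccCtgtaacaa
Snap25-202: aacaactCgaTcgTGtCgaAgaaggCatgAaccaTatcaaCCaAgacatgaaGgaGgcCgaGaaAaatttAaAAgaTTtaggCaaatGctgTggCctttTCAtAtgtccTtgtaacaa

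Of the reads assigned to both transcripts, Snap25-201 took 71.0% ± 1.82 in Ctr-OPCs (n = 4), 71.3% ± 5.81 in Dexa-treated OPCs (n = 3) and 71.3% ± 4.41 in IFN-γ-treated OPCs (n = 4). The proportion thus varied within groups by more than between their means. The transcripts also end at different 3′ positions, so the share is not a reading of the exon alone. For Unc13b, the main transcript Unc13b-201 took 67.2% ± 4.09 of reads in Ctr-OPCs and 72.8% ± 2.57 in IFN-γ-treated OPCs (exact permutation p = 0.0857, adjusted 0.2). Unc13b-216, which starts inside the gene at position 43209498, took 5.13% ± 0.565 and 2.95% ± 1.36 (SD, n = 4 each).

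**Figure D4:**
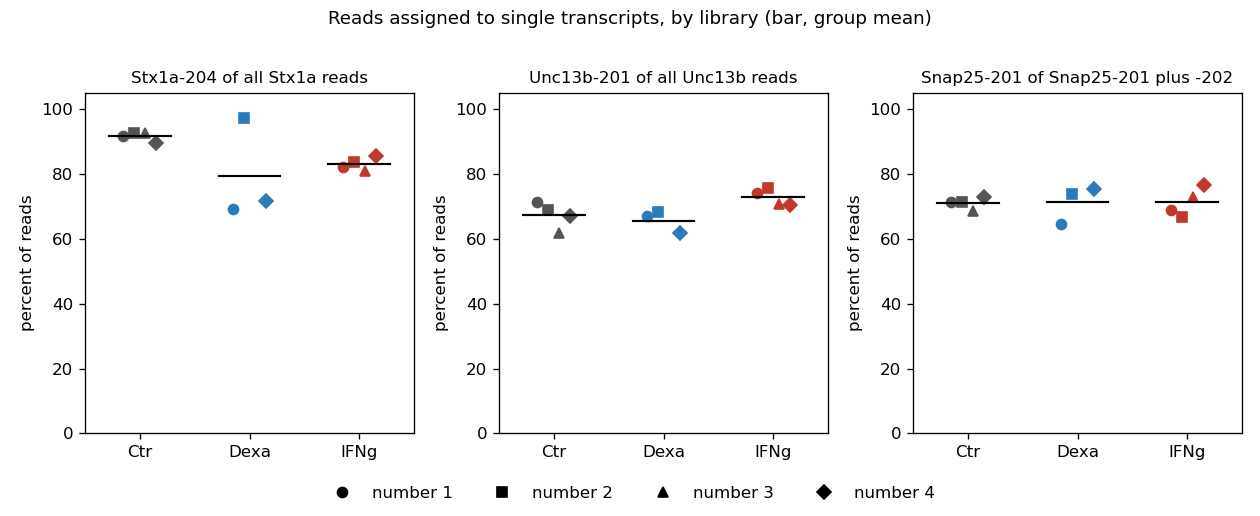
Percent of reads (vertical axes from 0) assigned to Stx1a-204 among all Stx1a reads, to Unc13b-201 among all Unc13b reads and to Snap25-201 among Snap25-201 plus Snap25-202, in every complete library, with marker shape for the replicate number and bars at group means. Stx1a-204 lies at 80.7% to 85.5% in IFN-γ-treated OPCs and above that in Ctr-OPCs, and the Snap25 means of the 3 groups are level.

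The rest of the pathway was read from 5 lists, 94 genes in all and 81 tested, made by role without regard to how they moved but after results of these data were known. In IFN-γ-treated OPCs against Ctr-OPCs, 15 of the 81 were called (10 higher and 5 lower), or 18.5% beside 12.8% of all genes, and the median log2 fold change was -0.11 beside -0.02. With the replicate block 32 were called (13 higher and 19 lower), beside 29.2% of all genes. Of 28 tested SNAREs and their regulators 6 were higher and 0 lower, of 12 active zone scaffolds 0 were higher and 3 lower, and of 16 synaptotagmins and other C2 sensors 4 were higher and 2 lower. Of 15 Rab3 and Rab27 partners and of 10 synaptic vesicle proteins 0 were called, although 3 and 6 were with the replicate block. An unadjusted DESeq2 p under 0.05 was found for 1 of those 15 and 3 of those 10, and edgeR called 0 of either list.

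Among the fusion factors, Cadps2 (CAPS2), a priming factor of dense-core vesicles, went from 242, 422, 484 and 377 normalized counts in Ctr replicates 1 to 4 to 702, 1296, 1541 and 1293 in IFN-γ replicates 1 to 4 (log2 fold change 1.66 ± 0.31, SE, DESeq2 adjusted p = 2.71e-06). Its groups did not overlap. Vamp8, a vesicle SNARE of endosomes and secretory granules, rose from a mean of 11.4 to 37.5 normalized counts (1.72 ± 0.49, DESeq2 adjusted p = 0.00480). Unc13d (Munc13-4), known from granule release in blood cells, had means of 11.3 and 31.9 (1.503 ± 0.53, DESeq2 adjusted p = 0.0385), with edgeR giving 0.0936 and the call lost without any one of 6 libraries (up to an adjusted p of 0.242 without IFN-γ replicate 1). Cplx1 and Stxbp6 were called higher as well.

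Of the active zone scaffolds, Bsn (bassoon) fell from 318, 608, 654 and 597 normalized counts in Ctr replicates 1 to 4 to 176, 226, 354 and 285 in IFN-γ replicates 1 to 4 (log2 fold change -1.07 ± 0.28, DESeq2 adjusted p = 0.00160). Rimbp2, which links RIM to calcium channels, fell from 275, 262, 285 and 448 to 136, 125, 198 and 196 (-0.96 ± 0.28, DESeq2 adjusted p = 0.00682). The Rimbp2 groups did not overlap, while those of Bsn did through Ctr replicate 1. edgeR gave 0.0516 for Rimbp2, and its call was lost without IFN-γ replicate 2 or Ctr replicate 4. Rims4 was the remaining scaffold called lower.

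The synaptotagmins held the widest changes in both directions. Syt2, a fast sensor like Syt1, went from 16.5, 21.1, 20.7 and 14.1 normalized counts in Ctr replicates 1 to 4 to 179.8, 100.1, 62.9 and 97.6 in IFN-γ replicates 1 to 4 (log2 fold change 2.59 ± 0.37, DESeq2 adjusted p = 5.72e-11). Syt4, which lacks a calcium-binding residue in its first C2 domain, went from 25.7, 100.4, 67.5 and 73.8 to 166, 614, 362 and 282 (2.41 ± 0.50, DESeq2 adjusted p = 3.43e-05). Both rose in every replicate number and in every IFN-γ library above every Ctr library. Syt9 rose from a mean of 299 to 599.8 (1.00 ± 0.16, DESeq2 adjusted p = 1.02e-08) and Syt17 from 37.7 to 81.1 (1.10 ± 0.26, DESeq2 adjusted p = 4.27e-04). Syt10 fell from a mean of 17.7 to 3.74 (-2.29 ± 0.62, DESeq2 adjusted p = 0.00315), on few reads, and its call was lost without the libraries numbered 1 (adjusted p = 0.115). Syt7 was the other sensor called lower.

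**Figure D5:**
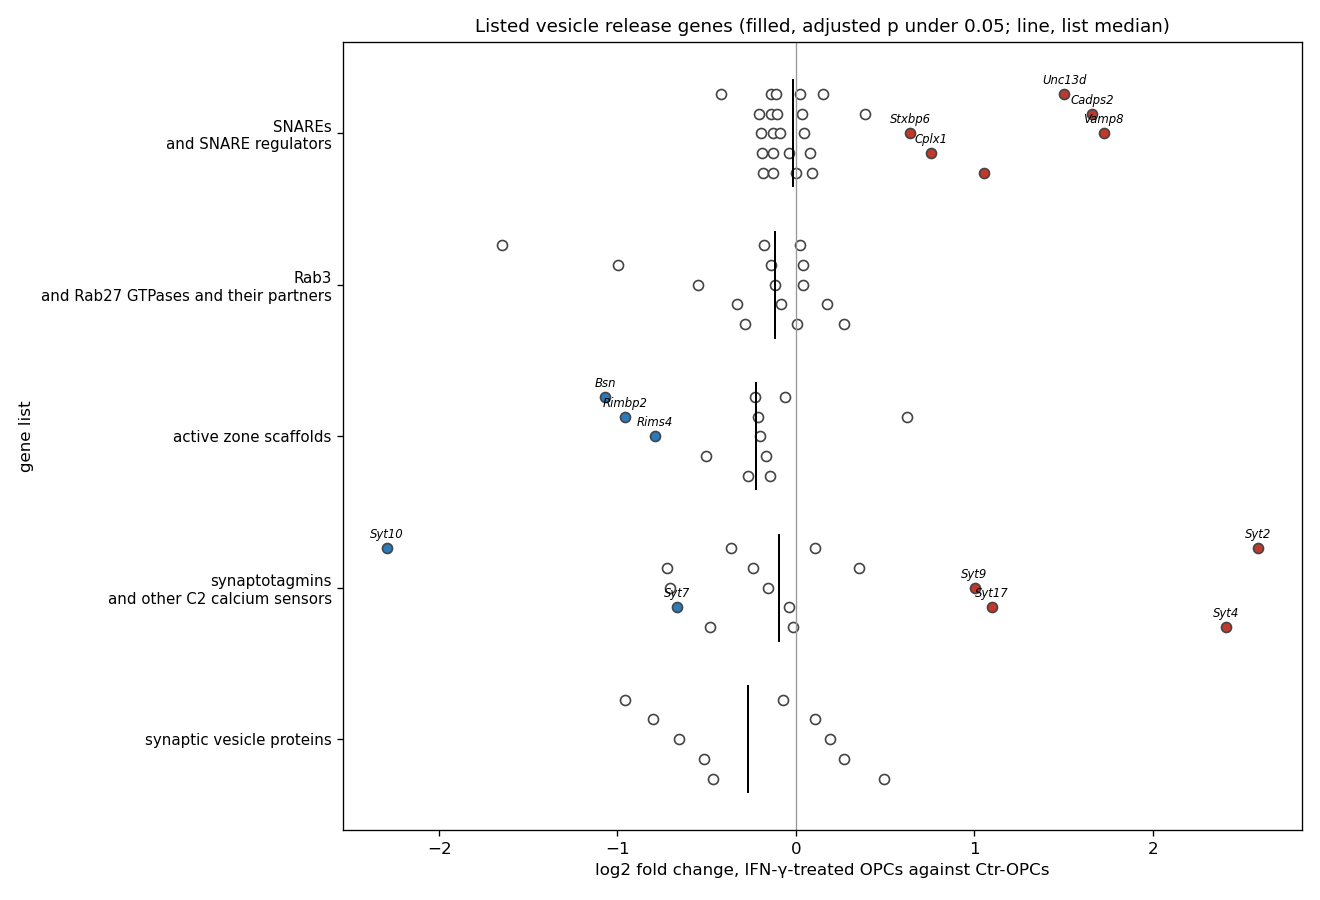
Log2 fold change of the 81 tested pathway genes in IFN-γ-treated OPCs against Ctr-OPCs (horizontal axis), 1 point per gene in rows by list, filled where the adjusted p was under 0.05, with a symbol at those named in the text and a line at each list's median. Filled points lie right of 0 for the SNARE regulators, left of 0 for the scaffolds and on both sides for the synaptotagmins.

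In Dexa-treated OPCs against Ctr-OPCs, 0 of the 81 pathway genes were called by DESeq2, beside 0.547% of all genes, and 0 by edgeR. At an unadjusted p under 0.05 there were 2, and with the replicate block 4 were called, all higher, beside 2.57% of all genes. Against Dexa-treated OPCs, 15 of 81 were called in IFN-γ-treated OPCs (6 higher and 9 lower). This was 18.5%, beside 13.1% of all genes (7.66% higher and 5.43% lower). Among the 9 lower were Sv2c (-1.67 ± 0.43, DESeq2 adjusted p = 0.00176), a vesicle membrane protein, and Rab3c (-1.21 ± 0.40, DESeq2 adjusted p = 0.0241), a Rab3a paralogue. edgeR did not make the Rab3c call (adjusted p = 0.0900). That call was also lost without IFN-γ replicate 1 or 2 or Dexa replicate 2 or 4 (DESeq2 adjusted p up to 0.160). The transporters that load glutamate or GABA into vesicles, Slc17a6, Slc17a7, Slc17a8 and Slc32a1, did not pass the filter on low counts, with at most 13 reads in any library.

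Over the 11 complete libraries, the genes whose log2(normalized count + 1) followed that of Rph3a most closely were Frmpd1 (Pearson r = 0.989), Gjd2 (0.986), Map4k4 (0.983), Cdk5r1 (0.980) and Gm42656 (0.980). Gm42656 lies within Rph3a on the same strand (chr5:120970043-120972347), so its reads and those of Rph3a may not be separate. For Unc13b they were Nrp2 (0.941), Sstr4 (0.923), Gm7389 (0.915), Cdk2ap1 (0.876) and Per3 (0.867). The libraries share the treatment and the replicate number, and the closest of 17919 genes reach high values on either account, so these are a description. Gjd2 (connexin 36) had means of 142, 161 and 20.0 normalized counts in Ctr-, Dexa- and IFN-γ-treated OPCs, and Nrp2, a semaphorin receptor, 739, 529 and 429.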

How the data were processed

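Total RNA-seq of cultured mouse OPCs was quantified by the authors with Salmon 0.8.2 after adapter and quality trimming, per the submitters' processing notes, which also name STAR and DESeq2. The deposited files gave an estimated count and a TPM value, each per transcript, with effective lengths. The transcript identifiers match GENCODE M21 on GRCm38. Both measures were summed per gene, and estimated counts were rounded. Such sums split reads shared by overlapping or similar genes by model. The authors' 3 comparison tables (fold changes and p-values) were not used.

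Groups and replicate numbers came from the labels. DESeq2 1.42.0 (Wald test, R 4.3.3) was fitted to the 11 complete libraries over 17919 genes, with Benjamini-Hochberg adjustment at 0.05. Dexa replicate 3, incomplete, entered only an alternative fit of 12 libraries over the 6319 genes it lists whole. Alternatives were edgeR 4.0.16 (quasi-likelihood, TMM, with limma 3.58.1), other filters, length offsets, a replicate block, leaving out each library and, added after seeing the data, leaving out the 3 libraries numbered 1. Deviations of same-numbered libraries correlated at r = 0.404 to 0.723 in all 10 pairs and of others at -0.614 to 0.495 in 30 pairs, so the numbers were taken to pair the libraries, whose titles also share a prefix within a number. Replicates 3 and 4 share 1 prefix. Replicates came from different litters, each experiment from several pooled brains, per the study's methods. Among the 11 complete libraries, no pair within a group was a duplicate. Transcript shares and figures used Python 3.11.15, scipy 1.17.1 and pandas 2.3.3, and the fits were tested on simulated data.

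The members and all gene lists were chosen with earlier results of these data known. Named were all 10 members, at most 10 called pathway genes per comparison by absolute log2 fold change, the 5 genes most correlated with Rph3a and with Unc13b, and markers called or near 0. Paralogues were named by family, outside that rule. Some items are not reported here.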

Additional observations from a re-analysis of the deposited data

Results flagged for a closer look

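Normalized counts of the members were checked for a library far from the other 3 of its group, in 20 groups of 4. Chance sets apart about 1 in 20 such groups. The Stx1a count of 116.82 in IFN-γ replicate 4 lay below the other 3 IFN-γ libraries by a gap of 0.906 of the group's range, past Dixon's 95% critical value for 4 samples. The Syt1 count of 552.03 in IFN-γ replicate 4 lay above the other 3 by a gap of 0.875 of the range.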

How the results depend on the processing

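These counts include Rph3a and Unc13b, which were selected on their changes, so they describe the fits and are no support. Where no share of all genes stands beside a count, the count is not a result about these genes. With the replicate block, the members called in IFN-γ-treated against Ctr-OPCs went from 4 to 7 in both DESeq2 and edgeR, and the pathway genes called from 15 to 32 in DESeq2 and 35 in edgeR. Of all genes, DESeq2 called 12.8% without the block and 29.2% with it. Leaving out 1 library gave 4 to 5 members and 12 to 19 pathway genes. In Dexa-treated against Ctr-OPCs, the 1 member called was Unc13b, which was selected on this contrast, and 3 were called with the block in DESeq2. Of all genes, DESeq2 called 0.547% without the block and 2.57% with it. The count of members became 0 in edgeR without the block, beside 0.123% of all genes, and in DESeq2 with length offsets. It was also 0 without the libraries numbered 1 and without any one of 8 libraries (each Ctr, each Dexa and IFN-γ replicate 2). edgeR with the block called 1, Snap25, and not Unc13b. The 0 pathway genes became 4 (DESeq2) and 2 (edgeR) with the block. Leaving out 1 library gave 0 to 1 members and 0 pathway genes, and 12 libraries gave 0 of 3 members and 0 of 28 pathway genes listed whole. In IFN-γ- against Dexa-treated OPCs, the 5 members called by DESeq2 (13.1% of all genes) became 3 in edgeR (8.77%) and 3 to 6 without 1 library. The 15 pathway genes became 38 in DESeq2 with the block, where 31.6% of all genes were called, and 39 in edgeR with the block. They became 23 without the libraries numbered 1 and 11 to 17 without 1 library. The cause was not tested.

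Directions turned only for uncalled values. In Dexa-treated against Ctr-OPCs, log2 fold changes with the block (DESeq2, then edgeR) were 0.116 and 0.1022 for Rph3a, 0.011 and 0.0113 for Rims1, -0.0254 and -0.0257 for Stx1a, and 0.0354 and 0.01 for Doc2b. With length offsets they were 0.0875 for Rims1 and -0.0437 for Stx1a. Without the libraries numbered 1 they were 0.0696 for Rph3a, -0.059 for Stx1a and 0.1234 for Doc2b. Leaving out 1 library gave -0.2989 to 0.3177 for Rph3a, -0.3717 to 0.1127 for Rims1, -0.0894 to 0.0706 for Stx1a and -0.471 to 0.1363 for Doc2b. The Snap25-201 share differed by 0.2461 points as a share of TPM and by -2.205 to 0.8677 without 1 library, and the Syt1-201 share by -0.6636 (without Ctr replicate 2) to 4.005. Depth leaves changes of Unc13c and Doc2b unresolved.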
